A study of Mus musculus with 2 samples.

Results

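The monocytes described here were 143 of the 19622 retinoid-containing lung cells kept after quality filters, with 86 of the 9634 cells of library 1 and 57 of the 9988 of library 2. They were chosen by their transcripts. A member held at least 5 unique molecular identifiers (UMIs, each standing for 1 captured transcript) of *Ms4a6c*, *Ifitm6* and *Gngt2* together and at least 1 of *Lst1* and *Csf1r*. It held at most 2 UMIs of the macrophage genes *C1qa*, *C1qb* and *C1qc*, fewer than 20 of the neutrophil genes *S100a8* and *S100a9*, and none of *Cd79a*, *Cdh5* or *Epcam*. The genes *Plet1*, *Krt79*, *Atp6v0d2* and *Fabp1* of alveolar macrophages had to stay under 5 UMIs, and *Ccl17*, *Cd209a*, *Flt3*, *Xcr1* and *Ccr7* of dendritic cells under 2. Members were then divided by their UMIs of *Ly6c2* and *Ccr2* together into cells with 2 or more and cells with 0. Values of these selecting genes are therefore given as a description, without a test.

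The lungs belonged to male mice of the C57BL/6 strain, wild type and 3 months old, with no treatment and no other genotype. The lungs were digested with proteases, and live single cells were sorted by the ultraviolet-excited fluorescence of their own retinoids, a gate named UV-positive. The 2 libraries were made on separate occasions and are the only replicates. The number of mice behind each library was not given in the sources used here. Each p-value rests on how differences between classes of cells varied between these 2 libraries, which may be partly technical. That variation was estimated from all the myeloid classes fitted together, and not from the 2 compared classes alone.

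Monocytes are circulating myeloid cells that leave the bone marrow, and in the mouse they take 2 main forms. Classical monocytes carry Ly6C and the chemokine receptor Ccr2 and enter inflamed tissue, where they can become macrophages or dendritic cells. Nonclassical monocytes carry little Ly6C, depend on the nuclear receptor Nr4a1, carry the fractalkine receptor Cx3cr1 and patrol the inner wall of small vessels, which are abundant in the lung.

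Library 1 held 48762735 UMIs and library 2 held 93970185, and the cells kept had a median of 4480.0 and 7577.5 UMIs. The members had a median of 4313.5 UMIs in library 1, with a range of 1632 to 8296, and of 5095 in library 2, with a range of 1716 to 18560. The libraries shared 23 cell barcodes, of which 1 belonged to a member. The members made up 0.893% of library 1 (exact Clopper-Pearson 95% interval 0.715 to 1.10) and 0.571% of library 2 (0.433 to 0.739). These intervals, and the limits that a count of 0 allows, cover counting error only.

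The upstream sequences of 4 interferon-responsive genes are printed first, as examples of the interferon list. Of its 22 genes tested, 2 were called higher in members with 2 or more UMIs of *Ly6c2* and *Ccr2* together, against 0.199% of all genes. A positive log2 fold change was found for 21, against 2460 of all 5535 genes tested. These counts include 1 cell rich in *Isg15*. Of the 4, *Isg15* was called, and lost the call without that cell, and the other 3 did not pass. They are *Isg15*, a ubiquitin-like modifier that interferon induces, *Bst2*, which tethers budding viruses to the cell membrane, *Ifi211*, of the family of DNA-sensing proteins, and *Slfn5*, a member of the Schlafen family. Each line gives the 160 bases before the annotated start of transcription, on the strand of the gene, from the RefSeq annotation of build GRCm38.p6. Capitals mark matches to the interferon-stimulated response element, searched on both strands as GAAA, any 2 bases and GAAA again, with overlapping matches joined. The genes were chosen from the list for having all their matches within these 160 bases. Their levels also had to be higher, without overlap, in the members with 2 or more UMIs of *Ly6c2* and *Ccr2* together. That all 4 hold the element and differ in this direction therefore follows from the choice.
Isg15: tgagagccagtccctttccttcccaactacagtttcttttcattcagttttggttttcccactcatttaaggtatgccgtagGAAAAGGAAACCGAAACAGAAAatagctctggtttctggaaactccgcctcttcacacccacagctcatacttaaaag
Bst2: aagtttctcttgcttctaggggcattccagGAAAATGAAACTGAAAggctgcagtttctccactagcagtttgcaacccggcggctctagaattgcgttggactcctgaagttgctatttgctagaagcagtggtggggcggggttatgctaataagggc
Ifi211: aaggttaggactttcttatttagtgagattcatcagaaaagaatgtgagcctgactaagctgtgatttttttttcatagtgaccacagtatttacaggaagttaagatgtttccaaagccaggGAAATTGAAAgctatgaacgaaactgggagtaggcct
Slfn5: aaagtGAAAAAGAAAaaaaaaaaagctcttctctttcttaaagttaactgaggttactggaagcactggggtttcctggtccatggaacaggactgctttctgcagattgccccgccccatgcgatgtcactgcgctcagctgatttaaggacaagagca

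The *Isg15* window lies at chr4:156200819-156200978 on the minus strand, and its match runs from base -78 to base -57, counted from the start of transcription. The *Bst2* window lies at chr8:71537473-71537632 on the minus strand, with its match from -130 to -115. The *Ifi211* window lies at chr1:173913047-173913206 on the minus strand, with its match from -37 to -28. That of *Slfn5* lies at chr11:82951942-82952101 on the plus strand, with its match from -155 to -146. The element was found, between 250 bases before and 50 bases after the start, in 10 of the 17 genes of the interferon list that had a promoter in the RefSeq table, which is 58.8%. It was found in 3.99% of all 27025 genes of that table and in 4.83% of the 4410 genes tested between the states that had one. Of the 7 genes called higher with 2 or more UMIs of *Ly6c2* and *Ccr2* together that had a promoter there, 1 matched, *Isg15*. A match is a description of the sequence and not a binding site.

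The name of the cells rests on 5 marker genes, of which the rule used all but *Plac8*. *Lst1*, which encodes a small leukocyte membrane protein, was at 1605 UMIs per 1000000 UMIs of the members (CPM) in library 1 and at 830.3 in library 2, and 100% and 96.5% of members held a UMI of it. *Gngt2*, a G protein subunit, was at 1611 and 1493 CPM, *Ms4a6c* at 981 and 729.7 and *Ifitm6* at 552 and 369. *Plac8*, the marker that the rule did not use, was at 2097 CPM in library 1 and 2597 in library 2 and was detected in 87.2% and 93.0% of members, against 8.25% and 13.3% of the stromal cells, which should lack it. The levels of the other 4 were set by the selection, and the marker independent of it was found in most members of both libraries.

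*Csf1r*, the receptor for the growth factor that monocytes and macrophages need, was at 401 CPM in library 1 and 495 in library 2. *Itgam*, an integrin chain of myeloid cells, was at 245 and 229. *Cx3cr1* was at 234 and 215, with a UMI in 54.7% and 68.4% of members. *Nr4a1* was at 689.9 and 1090.3, with a UMI in 83.7% and 98.2%. These genes were present in the members of both libraries, and *Nr4a1* was found in nearly every member of library 2. *Nr4a1* was not particular to the members. A UMI of it was held by 71.1% and 47.1% of the stromal cells and by 51.4% and 67.2% of macrophages with 10 or more UMIs of the C1q genes.

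Markers of other leukocytes ranged from absent to clearly present. All 6 T cell markers had no UMI in either library, and the 6 NK cell markers held 1 UMI in all. The neutrophil genes *Ly6g* and *Retnlg*, the macrophage genes *Lyve1* and *Folr2*, the dendritic cell genes *Clec9a* and *Siglech* and the alveolar macrophage genes *Ear1*, *Siglecf* and *Marco* were at 0 in both. Some lists were not at 0 as a whole. The 9 macrophage markers summed to 4389 and 3539 CPM, with 7 and 5 of them detected, the 8 dendritic cell markers to 847 and 526 with 4 detected in each library, and the 6 B cell markers to 121 and 78.3 with 2 detected in each. The 6 neutrophil markers summed to 60.5 and 69.9 CPM. Among genes of dividing cells, *Mki67*, *Birc5* and *Cdk1* had no UMI. The 8 epithelial markers summed to 484 and 257 CPM, and the list of 16 stromal markers, of which *Lum* was at 0, summed to 4002 and 8071 CPM. Among the lists of cells that are not leukocytes the stromal one was the highest in both libraries, so the numbers of calls, and the state results named with it, are also given without the cells that held it.

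The edges of the rule held few cells. The selecting sum of *Ms4a6c*, *Ifitm6* and *Gngt2* had a median of 13 UMIs among members of library 1, and of 14 among those of library 2. It was exactly 5 in 5 and 1 members, and 0 and 3 cells that met every other criterion stood at 4. The sum of *S100a8* and *S100a9* reached at most 0 UMIs in library 1 and 8 in library 2. Some exclusions removed more cells away from their edge, unevenly by library. Cells that met every other criterion but held *Cdh5* or *Epcam* numbered 6 in library 1 and 68 in library 2. Those excluded only by the dendritic cell genes numbered 15 and 35, and those excluded only by the C1q genes 3 and 28.

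Other classes of cells from the same libraries were each cut by their own marker genes. Those named C1q macrophages (72 and 64 cells, with 10 or more UMIs of the C1q genes), dendritic cells (39 and 92) and neutrophils (59 and 31) were compared with the members, and stromal cells (6692 and 7155) served as the reference for stromal transcripts. UMIs were summed over the cells of a class in a library, and edgeR's quasi-likelihood test with the library as a block compared the sums. Fold changes are given on the log2 scale with ± 1 SE.

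**Figure D1:**
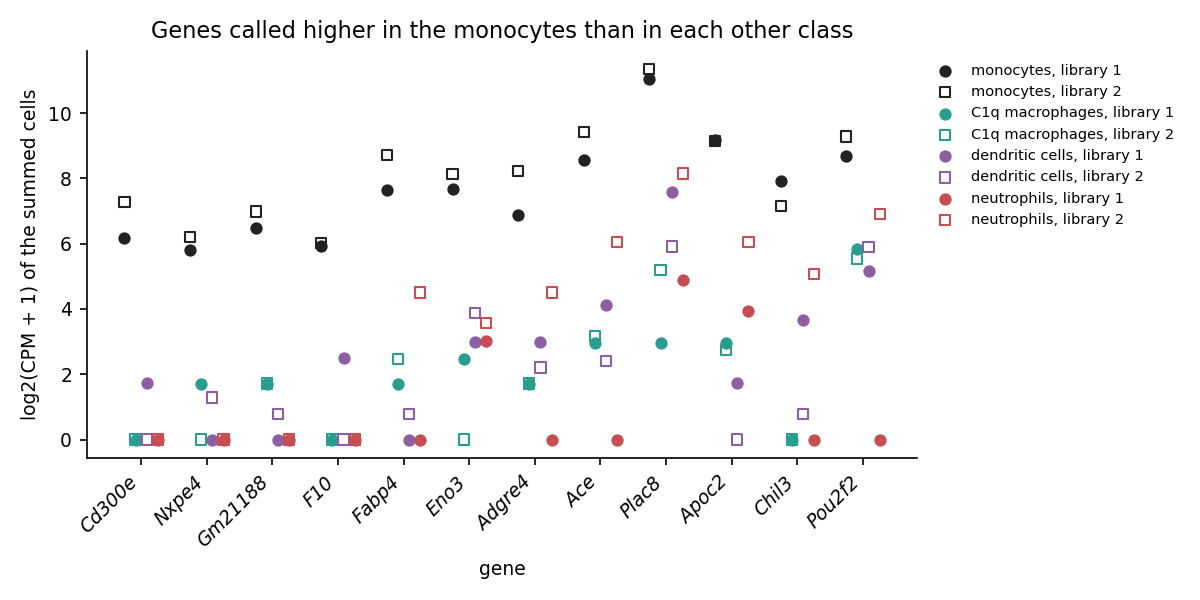
Level, as log2(CPM + 1), of the 12 named genes called higher in the monocytes than in each of the 3 other myeloid classes, with 1 point per class and library. The members sit above C1q macrophages, dendritic cells and neutrophils in both libraries, for *Plac8* at 2097 and 2597 CPM against at most 283 in any other sum.

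Against C1q macrophages, 1333 of 7358 genes were called at an adjusted p under 0.05 (18.1%), of which 658 were higher in the members (8.94%) and 675 lower (9.17%). Against dendritic cells 1062 of 7357 genes were called (14.4%), 556 higher (7.56%) and 506 lower (6.88%). Against neutrophils 691 of 7355 were called (9.39%), 352 higher (4.79%) and 339 lower (4.61%). There were 92 genes called higher and 27 called lower in the members in all 3 comparisons, out of 7354 tested in each. The members are shared by the 3 comparisons, so these counts are not independent of each other.

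The nonclassical monocyte list separated the members from all 3 classes. Of its 28 genes, 24 were higher in the members than in C1q macrophages and none lower, with a median log2 fold change of 3.12 where the median of all genes was -0.05. Against dendritic cells 24 were higher and 1 lower (median 3.97, all genes -0.06), and against neutrophils 17 were higher and 1 lower (median 2.48, all genes 0.14). Of the 24 genes of the classical monocyte list, 11 were higher and 3 lower in the members than in C1q macrophages. Against dendritic cells 15 were higher and 3 lower, and against neutrophils 7 were higher and 7 lower. The shares of all genes called in each direction lay between 4.61% and 9.17%, as given above. The median of each list is a description, since the list was chosen with earlier results of these cells known.

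*Cd300e*, an activating receptor of monocytes, was at 71.5 and 154 CPM in the members. It had no UMI in C1q macrophages, so the members were at least 49.4-fold higher against a floor of 3 UMIs over the class. It had none in neutrophils, at least 8.72-fold, and 1 UMI in dendritic cells, a ratio of 203 (counting interval 35.5 to 8131). *Ace*, the angiotensin-converting enzyme, was at 374 and 682 CPM in the members, 69.5 times its level over C1q macrophages (37.4 to 146), 73.4 times that over dendritic cells (42.4 to 139) and 20.5 times that over neutrophils (9.31 to 56.1). *Adgre4*, an adhesion receptor of the EGF-TM7 family, was at 115 and 296 CPM in the members, and *Eno3*, the muscle form of enolase, at 203 and 280.

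Lipid-related genes were also among the 12 named. *Fabp4*, a fatty acid binding protein, was at 198 and 422 CPM in the members and had 5 UMIs in all C1q macrophages, 1 in dendritic cells and 2 in neutrophils, for ratios of 81.6 (34.4 to 254), 559.9 (99.5 to 22214) and 36.0 (9.85 to 299). *Apoc2*, the apolipoprotein that activates lipoprotein lipase, was at 577 and 568 CPM, 94.4 times its level in C1q macrophages (47.5 to 220). Both genes were high in the members of both libraries.

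The transcription factor *Pou2f2* was at 407 and 623 CPM, 10.4 times its level in C1q macrophages, 9.70 times that in dendritic cells and 10.9 times that in neutrophils. The coagulation factor gene *F10* was at 60.5 and 64.3 CPM with no UMI in C1q macrophages, at least 27.4-fold lower there. *Chil3*, a chitinase-like secreted protein, was at 242 and 143 CPM and also had none in C1q macrophages, at least 84.8-fold lower there. *Nxpe4* (55.0 and 72.7 CPM) and *Gm21188* (87.9 and 126 CPM) completed the named genes with *Plac8*, whose log2 fold changes were 6.63 ± 0.751 against C1q macrophages, 4.16 ± 0.650 against dendritic cells and 3.93 ± 0.707 against neutrophils.

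Of the 27 genes called lower in the members than in all 3 classes, 6 were named, a number set beforehand. The chemokine gene *Ccl4* was at 22 and 8.39 CPM in the members, and its level was 15.8 times higher over C1q macrophages, 15.5 times over dendritic cells and 25.6 times over neutrophils. *Cd101* had no UMI in the members against 20, 29 and 13 UMIs in the classes, which put it at least 3.64-fold, 3.85-fold and 13.4-fold lower in the members. The small GTPase gene *Rhoc*, the growth cone protein gene *Basp1*, and *Npdc1* were the others, with *BC018473*, which had no UMI in library 2 in any of these classes and so rests on library 1.

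Of 8 macrophage markers tested, 6 were lower in the members than in C1q macrophages and none was higher, 3 were higher and 2 lower than in dendritic cells, and 1 was higher and 1 lower than in neutrophils. *Mrc1*, the mannose receptor, was at 5.50 and 0 CPM against 229 and 213, and *Ms4a7* at 8.25 and 0 against 332 and 257. Of 19 antigen presentation genes tested, 6 were higher and 7 lower than in C1q macrophages, 2 higher and 7 lower than in dendritic cells, and 7 higher and none lower than in neutrophils. The share of all genes called in each direction lay between 4.61% and 9.17% in these comparisons. *Cd74*, the invariant chain of MHC class II, was at 3097 and 2088 CPM in the members and at 24208 and 12965 in C1q macrophages (-2.90 ± 0.766, adjusted p = 0.0156). *B2m*, the light chain of MHC class I, was higher than in all 3 classes, at 1462 and 2072 CPM against 737 and 1010.4 in C1q macrophages (0.96 ± 0.263, adjusted p = 0.0183). Both genes were chosen as examples of the opposite directions after their values were seen.

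Single genes of the nonclassical list are given next. *Itgal*, a chain of the integrin LFA-1, was at 324 and 679 CPM, against 4.49 and 1.14 in C1q macrophages (7.62 ± 0.529, adjusted p = 6.51e-07). *Treml4* and *Spn*, the latter encoding CD43, were higher than in all 3 classes, at 212 and 235 CPM and at 212 and 285 CPM. *Cx3cr1* did not differ from C1q macrophages past the threshold (316.7 and 229 CPM there, -0.31 ± 0.292, adjusted p = 0.526).

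More transcription factors of the myeloid lineage were higher than lower in the members. Of 26 tested, 10 were higher and 3 lower than in C1q macrophages (median 0.62), 9 higher and 3 lower than in dendritic cells (0.65), and 3 higher and none lower than in neutrophils (0.69). Over all genes 8.94% were called higher and 9.17% lower against C1q macrophages (median -0.05). The shares were 7.56% and 6.88% against dendritic cells (-0.06) and 4.79% and 4.61% against neutrophils (0.14). *Spi1*, encoding PU.1, was at 734 and 668 CPM against 238 and 197 in C1q macrophages (1.65 ± 0.270, adjusted p = 0.000666). *Cebpb*, a factor on which nonclassical monocytes depend, was at 1572 and 3098 against 508 and 1025 (1.56 ± 0.244, adjusted p = 0.000447). *Pparg*, a nuclear receptor for fatty acid derivatives, was at 33.0 and 75.5 against 6.74 and 6.86 (3.00 ± 0.573, adjusted p = 0.00208). *Nr4a1* was higher than in C1q macrophages (1.28 ± 0.326, adjusted p = 0.0132) and did not pass the test against dendritic cells or neutrophils (adjusted p = 0.138 and 0.586).

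More adhesion genes were called higher than lower against C1q macrophages and dendritic cells, and more were called lower than higher against neutrophils. Of 23 chemoattractant receptors and adhesion molecules tested, 12 were higher and 3 lower than in C1q macrophages, 12 higher and 2 lower than in dendritic cells, and 2 higher and 8 lower than in neutrophils. The median log2 fold changes were 2.33, 1.95 and 0.14, where those of all genes were -0.05, -0.06 and 0.14. Between 4.61% and 9.17% of all genes were called in each direction in these comparisons. *Itga4*, a chain of the integrin VLA-4, was at 500.2 and 612 CPM against 47.2 and 37.7 in C1q macrophages (3.72 ± 0.495, adjusted p = 0.000103). *Itgb2*, the beta chain of the leukocyte integrins, was at 409.5 and 523 against 80.9 and 40.0 (2.97 ± 0.358, adjusted p = 4.63e-05). *Cxcr4*, which retains leukocytes in bone marrow, was at 121 and 296 CPM, above C1q macrophages and dendritic cells and below the 390.0 and 565 of neutrophils (-1.41 ± 0.315, adjusted p = 0.00932).

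Cytokine genes were called in both directions. Of 22 tested, 5 were higher and 9 lower than in C1q macrophages (median -0.21), 6 higher and 8 lower than in dendritic cells (0.22), and 2 higher and 12 lower than in neutrophils (-1.72). *Ccl3*, a chemokine made with *Ccl4*, was at 11 and 14.0 CPM against 193 and 173 in C1q macrophages (-3.90 ± 0.398, adjusted p = 1.11e-05), and *Tnf* at 5.50 and 8.39 against 124 and 45.7 (-3.62 ± 0.607, adjusted p = 0.000796). *Ccl6* went the other way, at 706 and 788 against 124 and 142 (2.46 ± 0.283, adjusted p = 3.24e-05). Of 14 immediate early genes, which respond within minutes to many stimuli and to tissue digestion, 8 were lower and 1 higher than in C1q macrophages, 4 lower than in dendritic cells and 8 lower than in neutrophils. *Egr1* was at 231 and 458 CPM against 1357 and 1516 in C1q macrophages (-2.13 ± 0.304, adjusted p = 0.000187). Stromal markers were lower in the members in the first 2 of these comparisons as well, and their part in the difference was not tested.

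More interferon genes were called higher than lower in the members against C1q macrophages and dendritic cells. Of 20 tested, 9 were higher and 1 lower than in C1q macrophages (median 1.51), 9 higher and 1 lower than in dendritic cells (1.25), and 3 higher and 3 lower than in neutrophils (0.28). Between 4.61% and 9.17% of all genes were called in each direction here. *Ifitm3*, a membrane protein that blocks the entry of viruses, was higher than in all 3 classes, at 5029.6 and 2980.1 CPM against 1265 and 1424 in C1q macrophages (1.49 ± 0.279, adjusted p = 0.00177). *Isg15* was at 66.0 and 137 CPM, above C1q macrophages and dendritic cells and below the 284 and 283 of neutrophils (-1.65 ± 0.389, adjusted p = 0.0126). A single member of library 2, described below, held 32 *Isg15* UMIs, so the level of that library rests largely on it. The comparisons between classes were not repeated without that cell.

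Stromal transcripts were not evenly spread over the classes. A cell was given a stromal level, the share of its UMIs from the stromal list divided by that of the median stromal cell of its library. The level was 0.2 or more in 11 members of library 1 (12.8%, 95% interval 6.56 to 21.7) and in 8 of library 2 (14.0%, 6.26 to 25.8), against 40.3% and 67.2% of C1q macrophages, 61.5% and 54.3% of dendritic cells and 16.9% and 3.23% of neutrophils. Of 15 stromal markers tested, 13 were lower in the members than in C1q macrophages and 10 lower than in dendritic cells, and 0 were called against neutrophils. Without cells at 0.2 or more, 499 genes were called against C1q macrophages, 432 against dendritic cells and 859 against neutrophils, from 2787, 2786 and 2784 genes that passed the filter in these smaller sums.

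The retinoid genes of the members followed those same cells. *Lrat*, which esterifies retinol for storage, had 20 UMIs in the members of library 1 and 26 in those of library 2. All of them fell in the 11 and 8 members at a stromal level of 0.2 or more, at 278 and 258 CPM, where the stromal cells themselves had 318 and 143. The 74 and 49 members below 0.05 held no *Lrat* UMI, with median depths of 3806.5 and 4885 UMIs against 6628 and 13291. *Aldh1a1*, which makes retinoic acid, had 40 and 107 UMIs in the first set and 0 and 2 in the second. The storage and synthesis genes were thus found in the members that also held stromal transcripts. How those transcripts came to share a barcode with a monocyte was not tested.

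**Figure D2:**
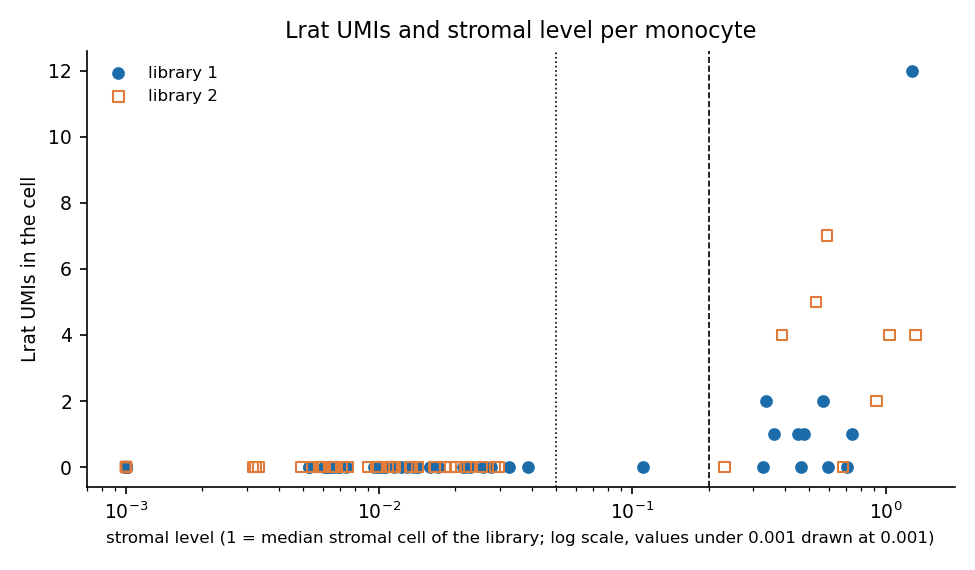
*Lrat* UMIs of each member (vertical axis) against its stromal level relative to the median stromal cell (horizontal axis), by library. The horizontal axis is logarithmic, with lower levels drawn at 0.001, and lines mark 0.05 (dotted) and 0.2 (dashed). All 20 and 26 *Lrat* UMIs lie in the 11 and 8 members at a level of 0.2 or more.

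Other genes of the retinoid list were measured in the members without stromal transcripts. *Rara*, a nuclear receptor for retinoic acid, had 33 and 44 UMIs in the members below 0.05, and its partners *Rxra* and *Rxrb* had 6 and 4, and 11 and 10. The lipoprotein receptors *Lrp1* (102 and 99 UMIs) and *Scarb1* (26 and 35) were present there as well. Over all members *Rara* was at 107 and 159 CPM, higher than in C1q macrophages (29.2 and 25.1 CPM, 2.28 ± 0.404, adjusted p = 0.00122) and than in dendritic cells (58.3 and 42.7 CPM, adjusted p = 0.0170), and *Scarb1* was higher than in all 3 classes. There was no UMI of 10 of the 35 listed genes in either library, among them *Stra6*, the receptor for plasma retinol binding protein, and the retinoic acid oxidases *Cyp26a1* and *Cyp26b1*.

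The members were not uniform in *Ly6c2* and *Ccr2*. In library 1, 40 of 86 members had 0 UMIs of both genes together (46.5%, 35.7 to 57.6), 9 had 1 and 37 had 2 or more (43.0%, 32.4 to 54.2). Among the 57 of library 2, 34 had 0 (59.6%, 45.8 to 72.4), 8 had 1 and 15 had 2 or more (26.3%, 15.5 to 39.7). Cells with 0 had a median of 3149.5 and 4858.5 UMIs and cells with 2 or more 4984 and 6396, so the cells without a UMI were also the shallower ones. When each cell was thinned to 2000 UMIs before the rule was applied, the mean share over the libraries was 16.0% with 2 or more, against 34.7% unthinned, and 64.7% with 0, against 53.1%. That thinning also left fewer members, 55 in library 1 and 36 in library 2, of which 13 and 3 had 2 or more.

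**Figure D3:**
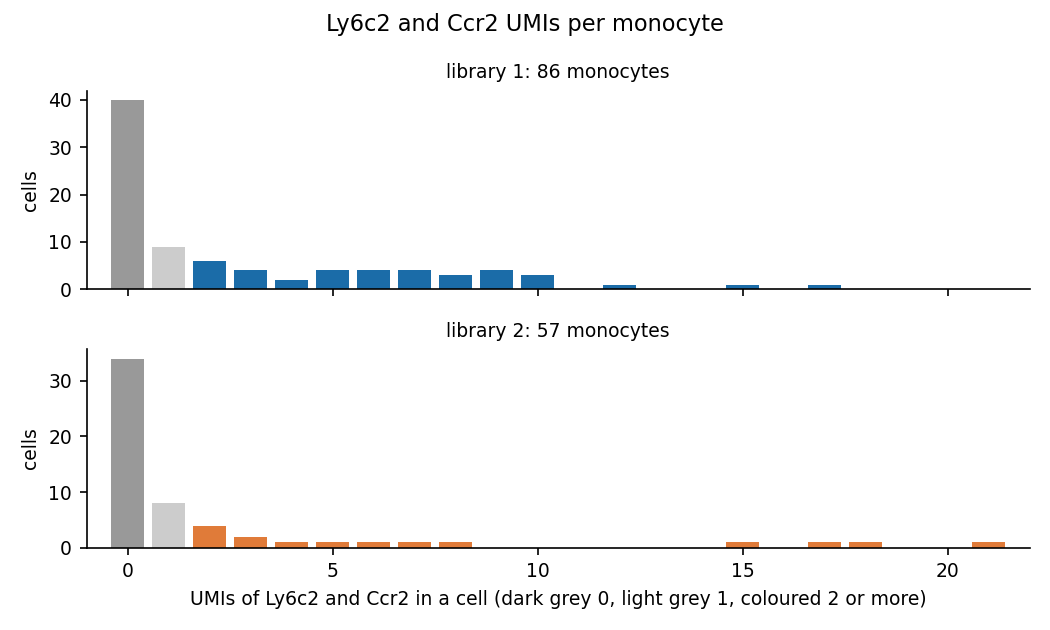
Number of members (vertical axis) at each sum of *Ly6c2* and *Ccr2* UMIs (horizontal axis) in each library. The cells at 0 number 40 and 34, and those at 2 or more number 37 and 15.

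Both genes contributed. In library 1, 24 members held UMIs of both, 5 of *Ly6c2* alone and 17 of *Ccr2* alone, and in library 2 the numbers were 11, 3 and 9. *Ly6c2* had 125 and 55 UMIs and its near-identical copy *Ly6c1* had 2 and 1, with reads that the counting could have split between them. When the members were grouped by *Ly6c2* alone, *Ccr2* was at 582 and 649 CPM in those with 2 or more and at 196 and 46.6 in those with 0, 2.39 ± 0.525 on the log2 scale, where 0.288% of genes were called. When they were grouped by *Ccr2* alone, *Ly6c2* was at 669 and 501 CPM against 99.3 and 21.8, 3.50 ± 0.482 on the log2 scale, where 0.105% of genes were called. The level of each gene was higher where the other was, in both libraries, which is a description, since both genes define the states.

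Between members with 2 or more UMIs of *Ly6c2* and *Ccr2* and members with 0, 14 of 5535 genes were called (0.253%), 11 higher with 2 or more (0.199%) and 3 lower (0.0542%). None of the 14 overlapped between the states, where 13.1% of all genes did not overlap with 2 or more above 0 and 22.8% with 0 above 2 or more. An unadjusted p under 0.05 was reached by 620 genes (11.2%), and the median log2 fold change of all genes was -0.11. With each cell thinned to 2000 UMIs after the rule, 6 genes were called, 3 of them among the 14, and all 14 kept their sign. A fold against few UMIs is given as a ratio with its counting interval.

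**Figure D4:**
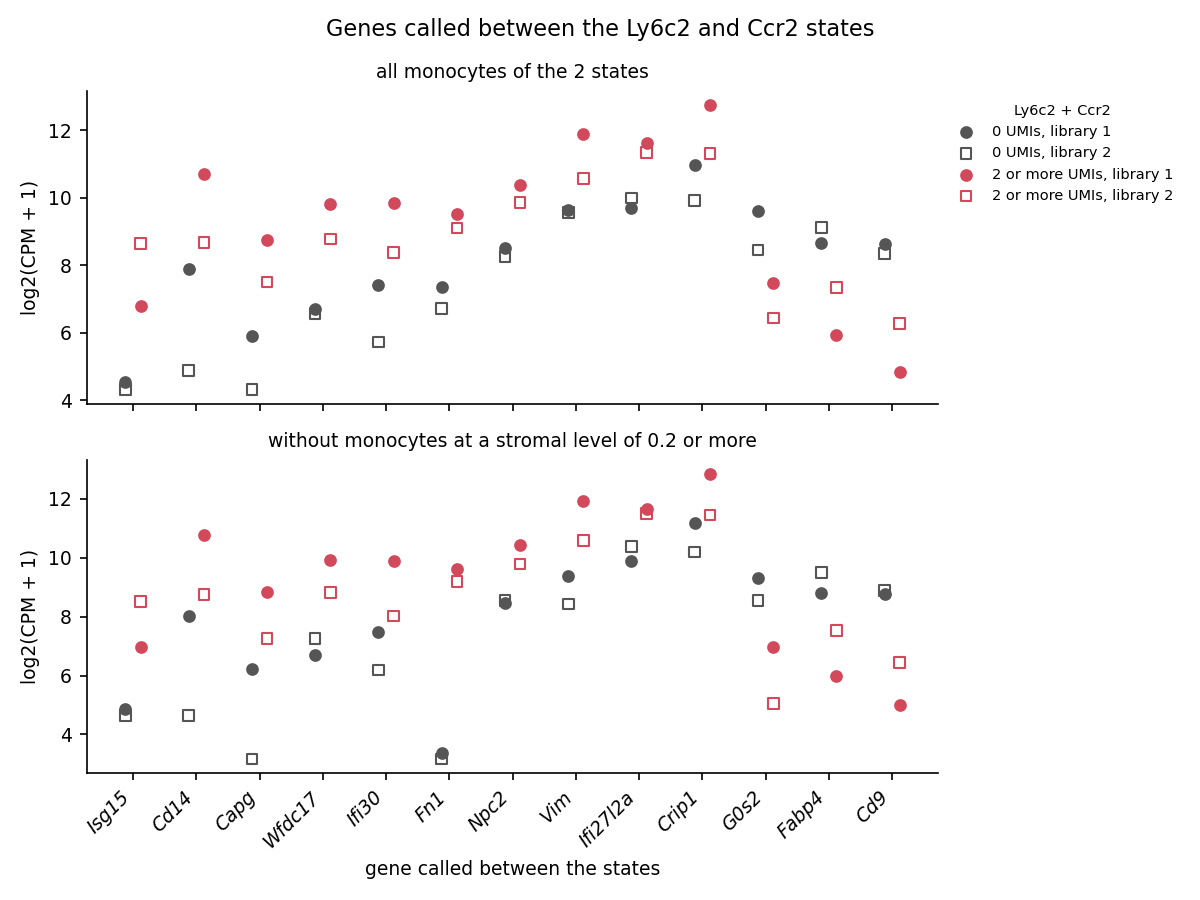
Level, as log2(CPM + 1), of 13 of the 14 genes called between members with 2 or more and with 0 UMIs of *Ly6c2* and *Ccr2*, with 1 point per state and library, over all members of the states (top) and without those at a stromal level of 0.2 or more (bottom). Over all members *Cd14* goes from 234 and 28.2 CPM to 1676 and 406, and *Cd9* from 395 and 324 to 27.3 and 75.6.

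The genes that rose belonged to the classical monocyte list and to others. *Cd14*, a co-receptor for bacterial lipopolysaccharide, rose from 234 and 28.2 CPM to 1676 and 406 (3.18 ± 0.417, adjusted p = 0.0127). *Capg*, an actin-capping protein, rose from 58.6 and 18.8 to 426 and 179.5 CPM, a ratio of 9.77 with a counting interval of 5.35 to 19.6 (adjusted p = 0.0131).

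*Fn1*, encoding fibronectin, rose from 161 and 103 CPM to 732 and 548 (2.36 ± 0.437, adjusted p = 0.0425), and a single cell held 27 of its 58 UMIs in library 2. Stromal cells also make it, at 754 and 937 CPM here. Without the members at a stromal level of 0.2 or more, cells with 0 held 1 *Fn1* UMI in each library, 9.29 and 7.99 CPM, and cells with 2 or more were at 788 and 583, a ratio of 82.9 (22.6 to 689.8). The difference was larger once the cells with stromal transcripts were left out.

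*Wfdc17*, of the whey acidic protein family, rose from 102 and 93.9 CPM to 901 and 435 (2.79 ± 0.496, adjusted p = 0.0297). *Ifi30*, a lysosomal thiol reductase, rose from 168 and 51.7 to 906 and 331 (2.60 ± 0.426, adjusted p = 0.0201), and *Npc2*, a lysosomal cholesterol carrier, from 359 and 305 to 1338 and 926 (1.84 ± 0.352, adjusted p = 0.0492). *Vim*, the intermediate filament vimentin, rose from 791 and 752 to 3750.4 and 1521 CPM (1.77 ± 0.314, adjusted p = 0.0297). *Crip1*, a small LIM protein, rose from 1991 and 968 to 6889 and 2532 (1.68 ± 0.277, adjusted p = 0.0201), but its adjusted p was 0.255 without the members that held stromal transcripts.

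*Ifi27l2a*, a protein induced by interferon, rose from 819.9 and 1009.9 CPM to 3117 and 2589 (1.68 ± 0.261, adjusted p = 0.0137). *Isg15* rose from 22 and 18.8 to 109 and 397 CPM (3.56 ± 0.676, adjusted p = 0.0485). In library 2 a single cell held 32 of the 42 *Isg15* UMIs of its state, together with 13 of 13 UMIs of *Rsad2*, 28 of 45 of *Irf7* and 14 of 23 of *Ifi211*. Its interferon list took 430.3 of each 10000 UMIs, against a median of 65.5 in the other members. Without that cell *Isg15* was at 102 CPM in the other 14 cells and was no longer called (2.45, adjusted p = 0.107), nor was *Wfdc17* (2.63, adjusted p = 0.0686).

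The 3 genes that fell were *Cd9*, *Fabp4* and *G0s2*. *Cd9*, a tetraspanin, was at 395 and 324 CPM with 0 and at 27.3 and 75.6 with 2 or more (-2.87 ± 0.433, adjusted p = 0.0137). *Fabp4* was at 403 and 549.6 against 60.1 and 161 (-2.16 ± 0.361, adjusted p = 0.0204), and *G0s2*, an inhibitor of the lipase that breaks down stored triglyceride, at 783 and 348 against 175 and 85.0 (-1.99 ± 0.305, adjusted p = 0.0137). Stromal cells held 1792 and 1027 CPM of *G0s2*, and the call stood at an adjusted p of 0.0138 without the members at 0.2 or more. The states did not overlap for any of the 3 genes, where 22.8% of all genes did not overlap with 0 above 2 or more.

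Most of the classical list had a positive log2 fold change. Of its 24 genes tested, 4 rose and none fell, 20 had a positive log2 fold change and the median was 1.74, where that of all genes was -0.11. The 2 states did not overlap in 17 genes that were higher with 2 or more and in 1 that was higher with 0, against the 13.1% and 22.8% of all genes given above. *F13a1*, encoding the A chain of coagulation factor XIII, had 0 and 1 UMIs in cells with 0 and 78 and 20 in cells with 2 or more, a ratio of 118.5 (20.8 to 4728) with an adjusted p of 0.0587 that missed the threshold. *Lyz2*, lysozyme, was at 9239 and 4354 CPM against 35577 and 11225 (1.73 ± 0.535, adjusted p = 0.231), and its reads can be split with its copy *Lyz1*.

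The nonclassical list lay the other way. Of 28 genes tested, 1 (*Fabp4*) fell and none rose, 26 had a negative log2 fold change and the median was -1.26. In 20 the states did not overlap with 0 above 2 or more, where 22.8% of all genes did not overlap in that direction. *Fcgr4*, an activating receptor for immunoglobulin G, was at 351 and 235 CPM with 0 and at 32.8 and 75.6 with 2 or more (-2.46 ± 0.514, adjusted p = 0.0772), *Eno3* at 454 and 329 against 21.8 and 142 (adjusted p = 0.0840) and *Cd36*, a scavenger receptor for lipids, at 329 and 348 against 10.9 and 132 (adjusted p = 0.0840). *Cd300e* was at 146 and 221 against 5.46 and 28.3. None of these 4 passed the test in the full set of members.

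For several genes of the nonclassical list the states stood closer in library 2 than in library 1. *Ace* was at 754 and 620.0 CPM with 0 and at 115 and 529 with 2 or more, and a UMI of it was held by 95% and 85.3% of cells with 0 and by 29.7% and 73.3% of cells with 2 or more. *Itgal* went from 600.3 and 681 to 115 and 595 CPM, and *Ear2*, an eosinophil-type ribonuclease, from 483 and 352 to 38.2 and 302. *Nr4a1* was at 1039.5 and 1137 CPM against 491 and 689.7 (-0.85 ± 0.315, adjusted p = 0.322), and *Cx3cr1* at 271 and 193 against 229 and 236 (0.06 ± 0.363, adjusted p = 0.979). Whether the change itself differed between libraries was not tested, since each library gave 1 sum a state.

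Measured per cell, the medians of the lists ran in opposite directions in library 1, and in library 2 between cells with 0 and cells with 2 or more. Each list was summed over its UMIs. A large part of the classical sum came from *Lyz2*, which did not pass its own test over all members. In library 1 the classical list took a median of 149 of each 10000 UMIs in cells with 0, 266 in cells with 1 and 599.7 in cells with 2 or more, and the nonclassical list 131, 88.5 and 40.3. In library 2 the classical list took 126, 140.3 and 243 and the nonclassical list 173, 182 and 119. Cells with 2 to 3 UMIs lay between cells with 0 and cells with 4 or more in both libraries for both lists. In library 1 they took 421 of the classical list and 55.4 of the nonclassical one, against 629 and 35.2 in cells with 4 or more. In library 2 they took 143 and 143, against 259 and 86.0.

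**Figure D5:**
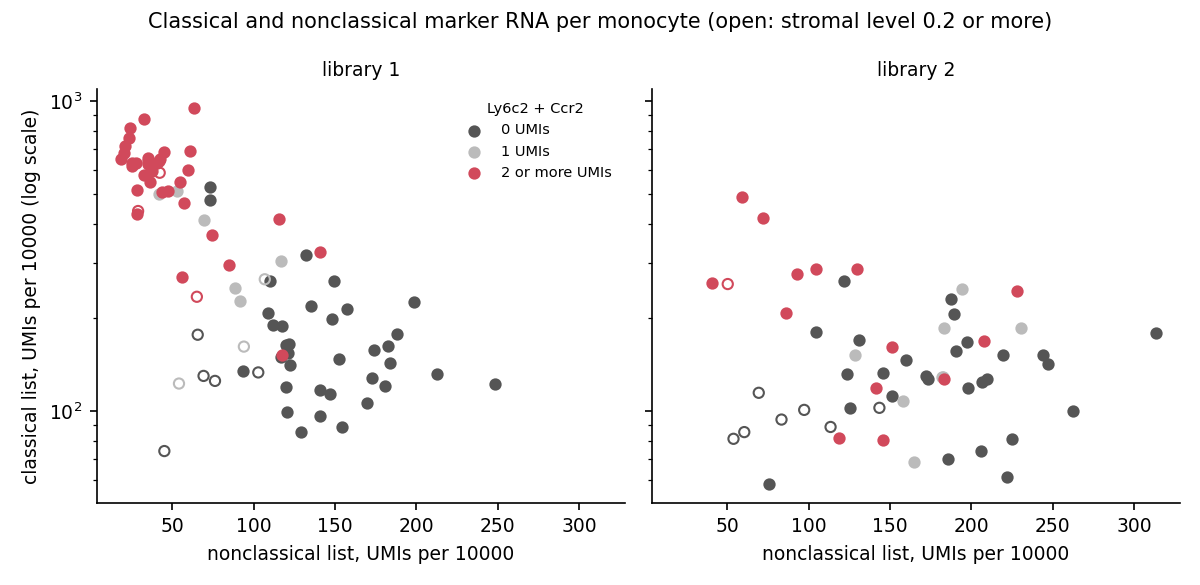
UMIs of the classical list (vertical axis) and of the nonclassical list (horizontal axis) per 10000 UMIs in each member, coloured by the *Ly6c2* and *Ccr2* sum, by library, with open points for members at a stromal level of 0.2 or more and a logarithmic vertical axis. For the classical list, library 1 had medians of 149 with 0 and 599.7 with 2 or more, and library 2 had 126 and 243. A large part of the classical sum came from *Lyz2*.

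The interferon list held 2 calls, *Isg15* and *Ifi27l2a*. *Ifi27l2a* is also in the classical list and is counted there, and *Isg15* lost its call without the single cell described above. The counts that follow include that cell. Of 22 genes tested, 2 rose and none fell, 21 had a positive log2 fold change, the median was 1.66, and 10 did not overlap with 2 or more above 0. Over all genes 0.199% rose, 2460 of 5535 had a positive log2 fold change, and 13.1% did not overlap in that direction. *Bst2* was at 117 and 132 CPM with 0 and at 289 and 293 with 2 or more, *Slfn5* at 36.6 and 42.3 against 120.1 and 378 and *Ifi211* at 7.32 and 4.70 against 38.2 and 217, the last from 1 UMI in each library with 0. None of these 3 passed the test, with adjusted p of 0.187, 0.135 and 0.0840. In the 14 cells of library 2 other than the 1 described above, *Bst2* was at 194 CPM, *Slfn5* at 296 and *Ifi211* at 91.9.

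Other lists were close to the median of all genes or held no call. The 25 myeloid transcription factors tested held none, with a median of -0.46. *Cebpb* was at 1684 and 3020.3 CPM against 1550.4 and 3137 (0.02 ± 0.225), and *Spi1* at 929.7 and 644 against 579 and 699. The 20 cytokine genes tested held none, with a median of 0.66, and *Il6* was in 1 cell of library 1 alone. The 22 Fc and phagocytic receptors (0.65), the 18 antigen presentation genes (0.08), the 13 complement and coagulation genes (0.51), the 19 retinoid genes (0.07), the 14 immediate early genes (-0.19) and the 8 heat shock genes (0.06) also held none. *Rara* was at 117 and 155 CPM with 0 and at 120.1 and 170.1 with 2 or more.

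Lipid genes were called in both directions. Of 24 tested, *Npc2* rose and *Fabp4* and *G0s2* fell, and the median was -0.46. Of 21 chemoattractant receptors and adhesion molecules, 1 was called. *Ccr1*, a chemokine receptor, had 0 and 1 UMIs with 0 and was at 76.4 and 47.2 CPM with 2 or more.

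Stromal markers moved with the states. Of 15 tested none was called, 15 had a negative log2 fold change, 12 had an unadjusted p under 0.05 and the median was -1.80. The list summed to 3895 and 12528 CPM in cells with 0 and to 3226 and 1937 in cells with 2 or more. The 19 members at a stromal level of 0.2 or more were then left out, which kept 35 and 27 cells with 0 and 34 and 14 with 2 or more. Of the 2411 genes that passed the filter in these smaller sums, 36 were called, 25 higher and 11 lower, and 13 of the 14 were among them. In the classical list 10 of 23 rose (median 1.79, all genes 0.06), and in the nonclassical list 6 of 26 fell, *Cd300e*, *Cd300ld*, *Eno3*, *Fabp4*, *Fcgr4* and *Stap1*, and 26 of 26 were negative (median -1.40). *F13a1*, *Chil3*, *S100a6* and *S100a10* were among the classical genes that passed there, with adjusted p of 0.00447, 0.00955, 0.0273 and 0.00891. Both lists thus kept their direction, with more calls, without the cells that carried stromal transcripts.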

How the data were processed

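The authors deposited raw counts of UMIs per gene and cell barcode for 2 libraries (10x Genomics 3' v3.1, Cell Ranger 5.0.1, mm10 per the labels), without normalization. Cells needed at least 200 genes and no more than 10% mitochondrial UMIs. UMIs were summed per library and class and tested with edgeR 4.0.16 (R 4.3.3, TMM, default filter on low counts, quasi-likelihood, two-sided, Benjamini-Hochberg over all genes tested), with the library as a block, because the classes of a library come from the same sample. Each fit also held the sums of the other myeloid classes, alveolar macrophages among them, which shared the estimate of the spread. A sum of fewer than 5 cells was left out, which removed alveolar macrophages of library 1. Genes of the class rules were not tested. CPM are shares of a sum without the TMM factor. The members, lists and tests were chosen with earlier results of these data known. Named between the classes were the 12 genes outside the rules, with at least 50 CPM in the members, that were called higher than in all 3 classes and ranked by their smallest fold change, and the 6 called lower. Between the states, the 12 largest changes each way with a mean of at least 50 CPM were named, and genes of the lists. Of the listed genes, 2 were not analysed here. Some measured genes are counted but not reported here by name. No doublet caller was run, and doublets were handled by the rule and by leaving out cells with stromal transcripts. Scripts were tested on simulated data, where 77% of genes changed 4-fold and 8% of those changed 2-fold were called in the state contrast (5173 genes). DESeq2 1.42.0, other filters and scalings, thinning to 2000 UMIs with a fixed seed and leaving out a library were alternatives. Python 3.11.15 with NumPy 2.4.6, SciPy 1.17.1 and pandas 2.3.3 was used.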

Additional observations from a re-analysis of the deposited data

How the results depend on the processing

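All 14 genes called between the states kept their direction under each alternative that gave a test. Between the states, 40 genes were called with DESeq2 (31 higher and 9 lower), 158 with no filter on low counts (69 and 89), 36 without the cells with stromal transcripts (25 and 11), 42 with the 2 states alone in the fit (29 and 13), 41 with 4 or more UMIs against 0 (26 and 15), 26 with *S100a8* and *S100a9* under 5 (22 higher) and 6 with cells thinned to 2000 UMIs (6 and 0, of 2437 genes). Without the single cell rich in *Isg15*, an alternative chosen after seeing the data, 18 were called, 12 of them among the 14. Against C1q macrophages the calls were 835 with DESeq2 (378 lower), 499 without stromal cells (245 and 254) and 569 thinned (255 and 314). Against dendritic cells they were 618 with DESeq2 (355 and 263), 432 without stromal cells (251 and 181) and 448 thinned (229 and 219), and against neutrophils 230 higher with DESeq2 and 430 thinned (194 lower). *BC018473*, with no UMI in library 2, had a log2 fold change of 0 without replicate 1 in all 3 comparisons and of -2.81, -3.21 and -4.36 without replicate 2 against C1q macrophages, dendritic cells and neutrophils. Of the 68 fold changes of named genes, 12 moved by more than the spread between libraries without replicate 1 and 15 without replicate 2. The mean share of members with 2 or more was 16.0% and that with 0 was 64.7% when cells were thinned before the rule, which left 55 and 36 members.

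Without the replicate block, the edgeR test called 0 genes between the states (0 higher and 0 lower, with 460 at an unadjusted p under 0.05, and 40 by DESeq2 with the block), 537 against C1q macrophages (306 and 231), 376 against dendritic cells (231 and 145), 237 against neutrophils (79 and 158), 3 by *Ly6c2* alone (1 and 2) and 0 by *Ccr2* alone (0 and 0), where *Ly6c2* had a log2 fold change of 3.46. Each class had 2 sums, so leaving out a library gave values with no test, and the depth of the cells with 0 limits their count.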
